A study of Rattus norvegicus with 22 samples.

Results

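Solute carriers are membrane proteins that move sugars, amino acids, ions, metals and metabolites across the plasma membrane and the membranes of organelles. The members described here are 33 genes of the 32545 identifiers in the deposited count table, of which 23572 had at least 1 count. They were chosen by name: every gene whose symbol starts with Slc and a digit in the study's list of genes that pairs identifiers with symbols; 2 further carriers are not analysed here. That list named 1774 identifiers, and it names mostly genes that the study called between injured and sham cortex on the injured side. The members were therefore selected on the ipsilateral difference itself, so all ipsilateral values below are a description with no test. Solute carriers outside that list are not analysed here.

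The animals were adult male Sprague-Dawley rats, spelled Sprague-Daley in the labels. In 6 rats a penetrating ballistic brain injury (PBBI) was made in the right frontal cortex with an inflatable probe. The 5 sham rats had the same procedures, craniectomy included, without insertion of the probe. Electrodes for electroencephalography were implanted in all animals. Cortex was taken from the side of the injury (ipsilateral) and from the other side (contralateral) 24 h later, and RNA depleted of ribosomal RNA was sequenced from 22 libraries, 1 per rat and side. Total gene counts were 42085341 to 63412426 per library. Below, values in the PBBI group follow the order of rats 81, 83, 85, 88, 90 and 96, and values in the sham group that of rats 82, 84, 86, 91 and 94. Levels are in CPM, counts scaled to the library size after TMM normalisation, and fold changes are log2 values of PBBI over sham from an edgeR fit with its standard error (SE).

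Glucose transporters such as GLUT1 supply the brain across the capillary wall, and monocarboxylate transporters move lactate between cells and blood. Amino acid and neurotransmitter carriers set the extracellular levels of transmitters such as glutamate and glycine, and the organic anion carriers of choroid plexus and meninges clear metabolites from cerebrospinal fluid. Many carriers are typical of 1 cell type, such as astrocytes, endothelium, choroid plexus or phagocytes. In these bulk libraries, fewer cells of a type and less RNA per cell cannot be told apart.

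Promoter windows are shown for 2 of the sugar and lactate carriers whose levels were higher on the injured side, because each holds a short motif known from stress responses. They are RefSeq windows of the GRCr8 build, of 300 bases, most of it before the start site, and positions count from the start site. The capitals mark TGACTCA, the AP-1 site, on the minus strand at position -232 of the Slc16a3 window (chr10:106712078-106712377, plus strand), and ACGTG, the core of the hypoxia response element, on the plus strand at position -51 of the Slc2a1 window (chr5:138002272-138002571, plus strand).
Slc16a3: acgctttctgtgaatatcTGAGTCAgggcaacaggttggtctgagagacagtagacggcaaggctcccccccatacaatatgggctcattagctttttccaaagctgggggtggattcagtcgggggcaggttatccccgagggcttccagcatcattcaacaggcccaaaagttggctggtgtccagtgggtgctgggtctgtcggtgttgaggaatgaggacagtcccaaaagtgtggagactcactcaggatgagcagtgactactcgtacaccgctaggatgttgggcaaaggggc
Slc2a1: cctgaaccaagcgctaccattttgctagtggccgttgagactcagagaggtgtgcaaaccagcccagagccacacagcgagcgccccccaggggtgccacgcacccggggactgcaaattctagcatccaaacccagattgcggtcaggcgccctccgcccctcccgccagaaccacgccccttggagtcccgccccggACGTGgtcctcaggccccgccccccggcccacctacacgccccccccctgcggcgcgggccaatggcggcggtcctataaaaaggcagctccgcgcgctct
Searched on both strands, ACGTG occurred in 19.3% of all 33469 windows and in 10 of the 30 windows found for 27 members. The members with ACGTG were Slc12a9, Slc14a1, Slc15a2, Slc17a3, Slc2a1, Slc35e3, Slc3a2, Slc6a5, Slc9a5 and Slc9c2. Of these, Slc15a2, Slc9a5 and Slc9c2 were lower on the injured side, Slc17a3 was too scarce to be fitted and the others were higher. TGACTCA occurred in 4.63% of all windows and in 2 member windows, those of Slc16a3 and Slc6a5. Each of the 2 windows printed holds 1 match. The window of Slc2a9, also higher on the injured side, was searched as well and held neither motif. A match is a description of the letters and not of binding, which was not measured.

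On the injured side, 16 of the 29 members that passed the filter on low counts were higher in PBBI and 13 were lower, with log2 fold changes from -2.33 to 3.32. Their median was 0.56, beside -0.02 over all 16104 genes tested. Slc6a4, Slc51a, Slc17a3 and Slc14a2 did not pass the filter. The edgeR fit called 8 members higher, where 4.09% of all genes were called higher, and 3 lower, where 0.584% were called lower. In 14 of the 33 members the PBBI and sham libraries did not overlap, 9 with all PBBI libraries above and 5 with all below, where 4.64% of all genes did not overlap. Since these members come from a list of called genes, nothing is read from these counts.

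The ipsilateral library of PBBI rat 85 stood apart. In a principal component analysis of the ipsilateral side, component 1 held 50.0% of the variance and placed this library at 200.7 and the other 10 between -72.0 and 73.5. Without it, 22 members were called, 14 higher and 8 lower, while calls over all genes went from 4.68% to 13.7%. Without it 20 members did not overlap, beside 9.38% of all genes. Rats 83 and 85 were each the lowest PBBI library in 7 of the 16 higher members, and rat 83 was the highest in 10 of the 13 lower ones. Rat 81 was the highest in 8 of the 16 higher members and the lowest in 8 of the 13 lower ones. Its library names hold PFC, unlike those of the other PBBI rats, and the part of this was not tested. Without rat 83, 17 members were called, beside 7.25% of all genes, and 22 did not overlap, beside 8.85%. Leaving out any of the 9 rats other than 83 and 85 lowered the count from 11 to between 3 and 7, with 3 called without sham rat 91. Calls over all genes also fell in these fits, from 4.68% to between 1.94% (without rat 91) and 2.88% (without rat 90). Leaving out any single rat turned the sign of 0 of the 29 ipsilateral fold changes.

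**Figure D1:**
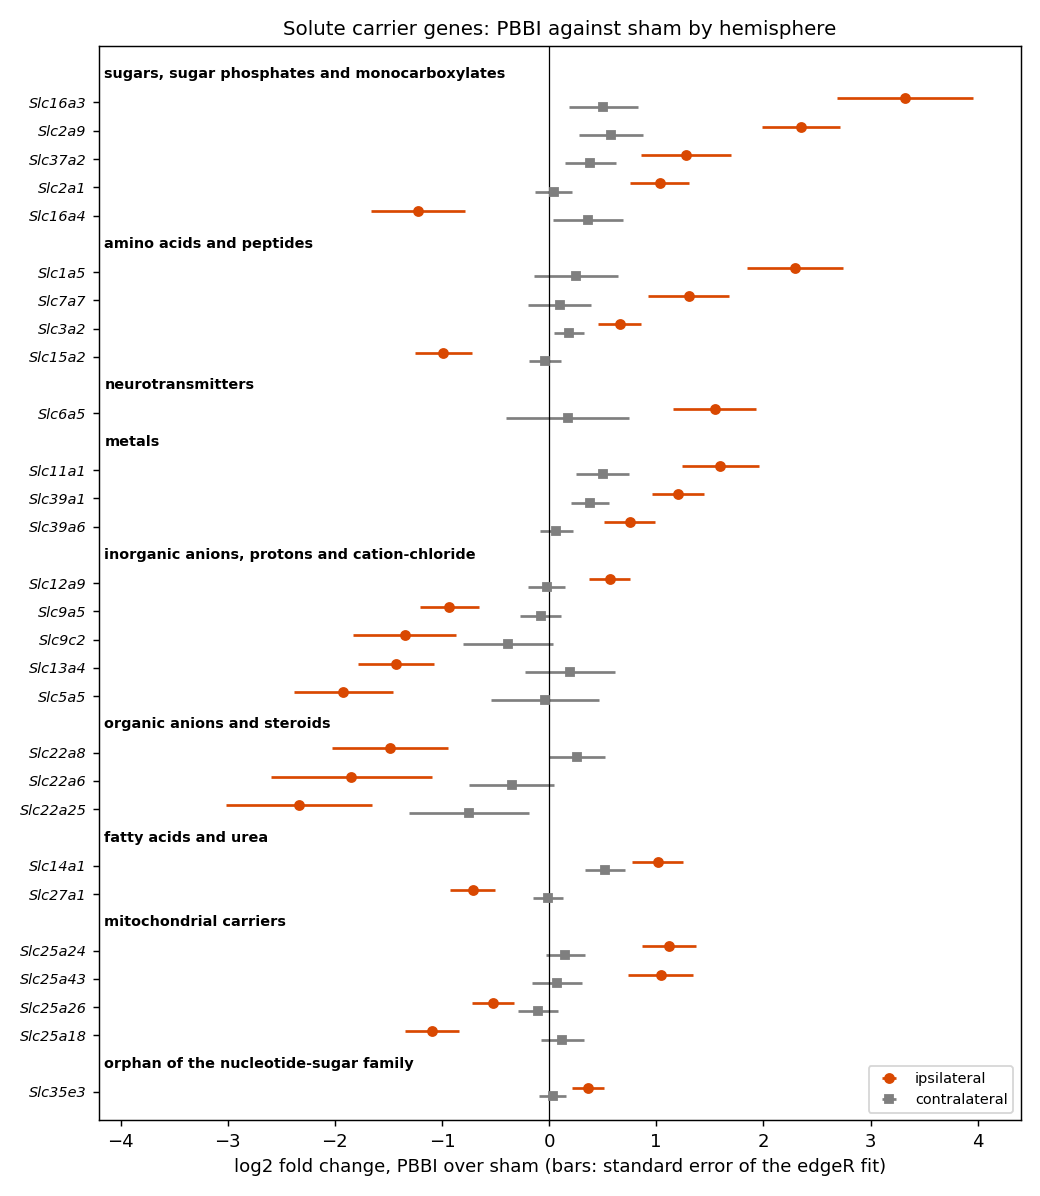
Log2 fold change of PBBI over sham (x axis) for 28 of the 29 members tested ipsilaterally, by substrate class, with SE bars from the edgeR fit. Ipsilateral values (circles) run from -2.33 to 3.32, and contralateral values (squares) lie between -0.75 and 0.58.

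Among carriers of sugars, sugar phosphates and monocarboxylates, 4 of 5 members were higher on the injured side and Slc16a4 was lower. Slc16a3 (ENSRNOG00000036677), which encodes the lactate exporter MCT4, had the highest ipsilateral fold change of the 29 members tested. Its ipsilateral level was 32.8, 2.93, 21.5, 13.7, 14.4 and 4.82 CPM in PBBI and 0.483, 1.45, 1.72, 1.44 and 2.46 CPM in sham. All PBBI libraries were above all sham libraries, and the lowest, rat 83, was close to the highest sham library. The log2 fold change was 3.32 (SE 0.64).

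Slc2a9 (ENSRNOG00000005302), a urate transporter of the glucose transporter family, was at 3.24, 2.23, 2.98, 3.67, 4.97 and 6.31 CPM in ipsilateral PBBI and 0.483, 0.647, 0.784, 0.718 and 1.19 CPM in ipsilateral sham. The groups were well separated, with a log2 fold change of 2.35 (SE 0.36). Slc2a1 (ENSRNOG00000007284), which encodes GLUT1, was expressed far higher, at 218, 90.4, 150.3, 208, 223 and 93.5 CPM in PBBI and 86.9, 89.5, 74.6, 63.7 and 86.7 CPM in sham. Rats 83 and 96 were only just above the sham range, while the other 4 PBBI rats were far above it. Its log2 fold change was 1.03 (SE 0.28).

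Slc37a2, a sugar phosphate exchanger, averaged 8.23 ± 4.09 (SD, n = 6) CPM in ipsilateral PBBI and 3.39 ± 1.18 (SD, n = 5) CPM in sham. Rat 85, at 2.32 CPM, was within the sham range. Slc16a4 (ENSRNOG00000018131), a member of the monocarboxylate transporter family, was the lower one, at 1.51, 5.60, 1.97, 1.21, 1.47 and 5.59 CPM in PBBI against 7.18, 6.62, 6.25, 5.88 and 7.85 CPM in sham. Rats 83 and 96 were just under the sham range and the other 4 were far under it. The log2 fold change was -1.22 (SE 0.44).

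**Figure D2:**
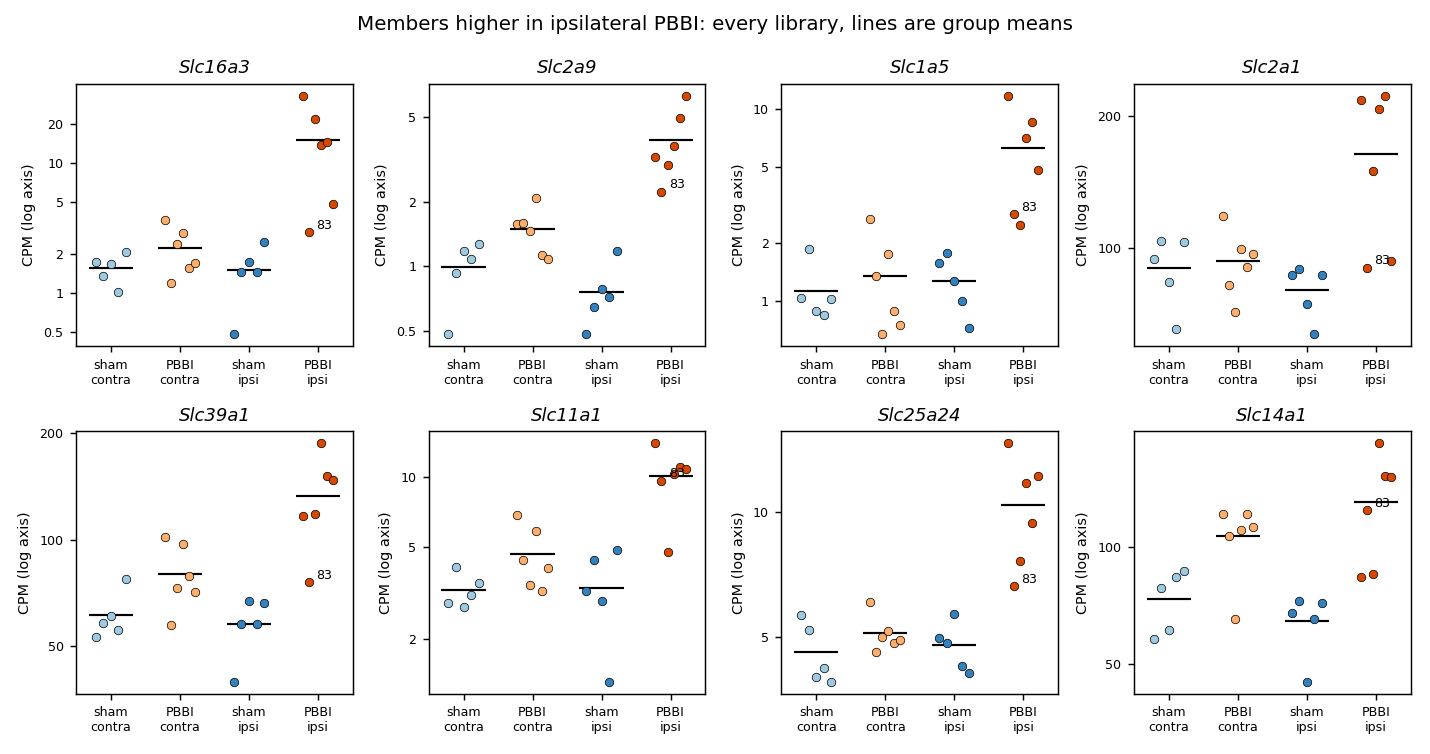
CPM (log axis) of 8 members that were higher in ipsilateral PBBI, in all 22 libraries by group; points are libraries, lines are group means, and rat 83 is labelled in ipsilateral PBBI. The ipsilateral PBBI and sham libraries do not overlap in 7 of them, and in Slc11a1 the lowest PBBI library, at 4.73 CPM, is under the highest sham library, at 4.83 CPM.

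Of the amino acid and peptide carriers, 3 of 4 were higher and Slc15a2 was lower. Slc1a5 (ENSRNOG00000015948), which encodes the neutral amino acid and glutamine transporter ASCT2, was at 11.8, 2.84, 2.49, 7.10, 8.59 and 4.83 CPM in ipsilateral PBBI and at 1.58, 1.79, 1.28, 1.00 and 0.726 CPM in sham. The groups did not overlap, and the log2 fold change was 2.30 (SE 0.45). Slc7a7 and Slc3a2 encode the light chain and the heavy chain of a cationic amino acid exchanger. Slc7a7 averaged 3.56 ± 1.49 (SD, n = 6) CPM in PBBI against 1.44 ± 0.533 (SD, n = 5) CPM in sham. Slc3a2 averaged 191 ± 31.5 (SD, n = 6) CPM against 121 ± 26.6 (SD, n = 5) CPM. In both genes 5 of 6 PBBI libraries were above all sham libraries, and rat 85 was the exception. Slc15a2, which encodes the peptide transporter PEPT2, averaged 43.3 ± 19.9 (SD, n = 6) CPM in PBBI and 85.9 ± 16.3 (SD, n = 5) CPM in sham. Rat 83, at 82.7 CPM, was within the sham range and the other 5 rats, at 32 to 45.3 CPM, were under it.

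Of the neurotransmitter carriers, Slc6a5 was higher on the injured side. Slc6a5 (ENSRNOG00000031662), the glycine transporter GlyT2, was at 8.0, 10.7, 8.79, 8.01, 7.62 and 25.0 CPM in ipsilateral PBBI and 3.19, 4.41, 3.14, 6.27 and 2.47 CPM in sham, with no overlap. Rat 96 lay far above the rest. The log2 fold change was 1.55 (SE 0.39), and 1.15 without rat 96. Slc6a4, the serotonin transporter, averaged 0.616 ± 0.526 (SD, n = 6) CPM in PBBI and 0.0675 ± 0.0302 (SD, n = 5) CPM in sham. It had 0 counts in PBBI rat 83 and was above the sham range in the other 5 rats.

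All 3 metal carriers were higher. Slc39a1 (ENSRNOG00000059463), the zinc importer ZIP1, was at 117, 75.9, 119, 188, 151 and 148 CPM in ipsilateral PBBI and 39.7, 57.8, 67.1, 57.9 and 66.5 CPM in sham, with no overlap. Its log2 fold change was 1.20 (SE 0.24). Slc11a1 (ENSRNOG00000014956), the phagosomal metal transporter NRAMP1 of macrophages and neutrophils, was at 13.9, 9.58, 4.73, 10.3, 11.0 and 10.8 CPM in PBBI and 3.21, 4.36, 2.9, 1.31 and 4.83 CPM in sham. Only rat 85 fell within the sham range. Its log2 fold change was 1.60 (SE 0.36). Slc39a6, the zinc transporter ZIP6, averaged 66.4 ± 21.5 (SD, n = 6) CPM against 39.5 ± 5.12 (SD, n = 5) CPM.

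Of the carriers of inorganic ions, 4 of 5 were lower and Slc12a9 was higher. Slc5a5 (ENSRNOG00000018822), the sodium iodide symporter, was at 0.187, 0.680, 0.700, 0.231, 0.288 and 0.867 CPM in ipsilateral PBBI and 2.17, 0.989, 1.62, 2.55 and 2.05 CPM in sham, with no overlap. The fitted difference was -1.92 in log2 (SE 0.46). Slc13a4, a sodium sulfate cotransporter, averaged 2.97 ± 1.18 (SD, n = 6) CPM against 7.98 ± 3.35 (SD, n = 5) CPM. Slc9a5, the sodium proton exchanger NHE5, averaged 11.1 ± 3.36 (SD, n = 6) CPM against 21.2 ± 6.51 (SD, n = 5) CPM. In each of these 2 genes, 5 of 6 PBBI libraries were under all sham libraries. Slc9c2 (ENSRNOG00000026797), another member of the proton exchanger family, was scarce, at 0.125, 0.207, 0.0875, 0.0434, 0.173 and 0.217 CPM in PBBI and 0.724, 0.247, 0.235, 0.351 and 0.280 CPM in sham, with no overlap. Slc12a9 (ENSRNOG00000048487), an orphan of the cation chloride cotransporters, was at 14.1, 10.7, 11.8, 13.3, 14.4 and 14.5 CPM in PBBI and 7.15, 8.50, 8.89, 9.98 and 10.0 CPM in sham. Its libraries did not overlap either, although the log2 fold change was only 0.56 (SE 0.19).

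Carriers of organic anions and steroids were lower in all 3 members tested. Slc22a6 (ENSRNOG00000018215), the organic anion transporter OAT1, was at 0.0934, 2.41, 2.41, 0.318, 0.231 and 0.609 CPM in ipsilateral PBBI and 1.43, 3.84, 5.46, 3.06 and 4.42 CPM in sham. Rats 83 and 85 were within the sham range and the other 4 PBBI rats were under it. Its log2 fold change was -1.84 (SE 0.75). Slc22a8, which encodes OAT3, averaged 3.45 ± 3.56 (SD, n = 6) CPM in PBBI against 9.66 ± 2.97 (SD, n = 5) CPM in sham, with rat 83 at 10.4 CPM and the other 5 at or under 3.83 CPM. Slc22a25, of the same family, averaged 0.0701 ± 0.0729 (SD, n = 6) CPM against 0.365 ± 0.167 (SD, n = 5) CPM.

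Slc51a (ENSRNOG00000001765), a subunit of a steroid and bile acid transporter, was at 0.156, 0.118, 0, 0.0867, 0.0576 and 0.0271 CPM in ipsilateral PBBI and 0.186, 0.171, 0.157, 0.287 and 0.478 CPM in sham. All PBBI libraries were under all sham libraries, at low levels. Slc17a3, a phosphate and urate transporter family member, had 0 counts in all sham libraries and 0 to 17 counts in ipsilateral PBBI. Its PBBI mean was 2.20 times the level that 3 counts per library would give. All contralateral libraries had 0 counts of Slc17a3. The level of 3 counts allows for counting error only, with counts taken as independent. Of counts from 1 to 19, 60.8% to 69.6% per library were even, so low counts may not be independent. The cause was not tested.

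**Figure D3:**
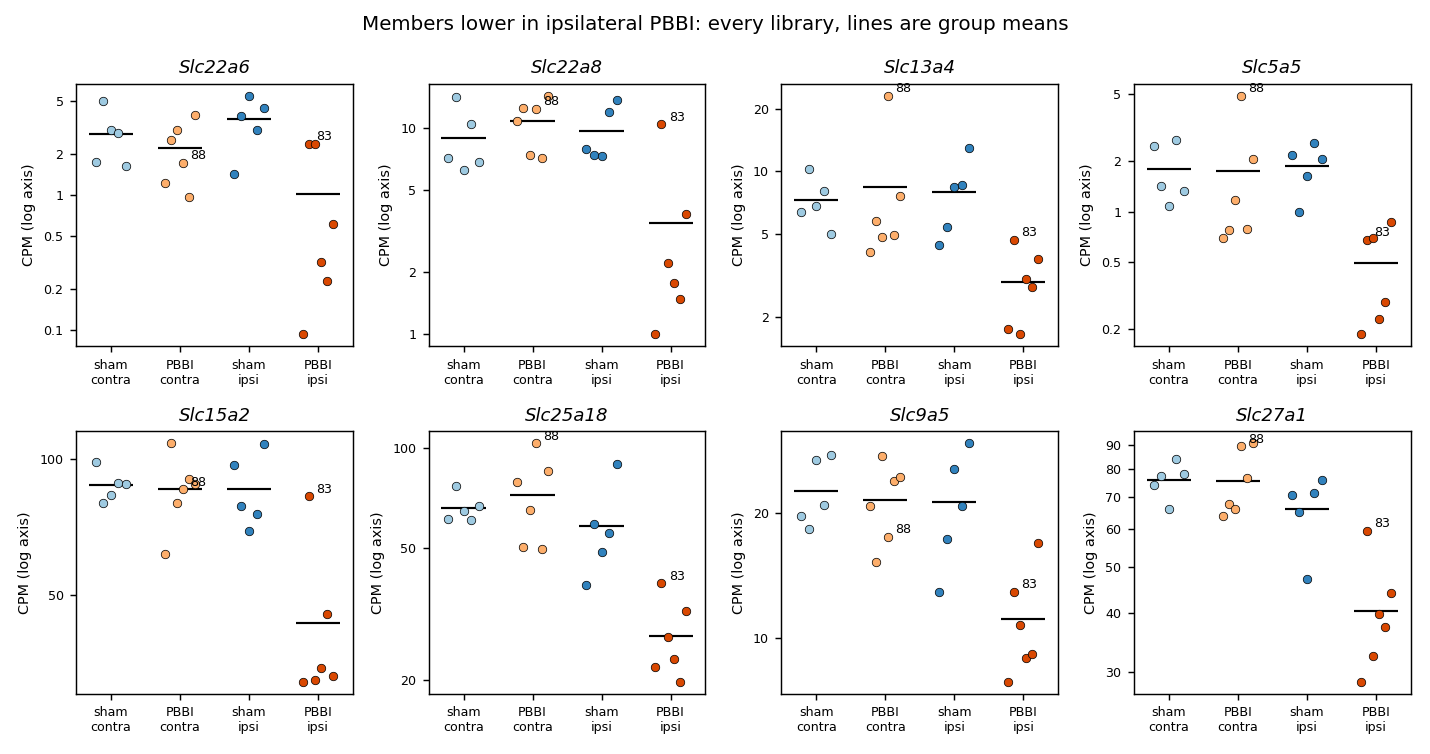
CPM (log axis) of 8 members that were lower in ipsilateral PBBI, in all 22 libraries by group; points are libraries and lines are group means. Rat 83 (labelled in ipsilateral PBBI) is highest of its group in most panels, and rat 88 (labelled in contralateral PBBI) is far above its group for Slc13a4, at 23.1 CPM, and Slc5a5, at 4.91 CPM.

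Slc14a1 (ENSRNOG00000016753), the urea transporter UT-B of astrocytes, was at 83.8, 124, 85.2, 184, 152 and 151 CPM in ipsilateral PBBI and 67.6, 72.7, 45.1, 65.4 and 71.8 CPM in sham. The groups did not overlap, and the log2 fold change was 1.01 (SE 0.24). Slc14a2, its relative known from the kidney, had at most 2 counts in ipsilateral sham libraries and 2 to 23 counts in PBBI. Slc27a1, the fatty acid transporter FATP1, averaged 40.3 ± 10.8 (SD, n = 6) CPM against 66.1 ± 11.3 (SD, n = 5) CPM, with 5 of 6 PBBI libraries under all sham libraries.

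The mitochondrial carriers were split, with 2 of 4 higher. Slc25a24 (ENSRNOG00000020470), which exchanges ATP-magnesium for phosphate, was at 14.6, 6.62, 7.61, 11.8, 9.40 and 12.2 CPM in ipsilateral PBBI and 4.97, 4.85, 5.70, 4.27 and 4.09 CPM in sham, without overlap, and its log2 fold change was 1.12 (SE 0.25). Slc25a43, an orphan carrier, averaged 2.53 ± 0.819 (SD, n = 6) CPM against 1.23 ± 0.235 (SD, n = 5) CPM. Slc25a18, a mitochondrial glutamate carrier, averaged 27.2 ± 7.34 (SD, n = 6) CPM against 58.3 ± 19 (SD, n = 5) CPM. Slc25a26 (ENSRNOG00000012831), which imports S-adenosylmethionine, was at 7.01, 9.92, 9.17, 8.30, 7.02 and 7.88 CPM in PBBI and 12.6, 11.0, 13.9, 11.7 and 10.0 CPM in sham. These libraries did not overlap, by a narrow margin, with a log2 fold change of -0.52 (SE 0.20). Slc35e3 (ENSRNOG00000027622), an orphan of the nucleotide sugar transporter family, had the smallest ipsilateral difference of the members tested, 0.36 (SE 0.15), with 58.2, 48.7, 43.4, 51.9, 57.7 and 58.5 CPM in PBBI and 45.8, 41.1, 35.9, 41.6 and 42.5 CPM in sham. Rat 85 was within the sham range.

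Levels of cell type markers are given here, and their part in the values above was not tested. Markers could be named only through the study's lists, which hold mostly genes called between these same ipsilateral groups. The ipsilateral sums therefore rest on markers selected in part for differing, and are a description and not a measure of cell content. The summed level of the 12 of 17 listed monocyte, macrophage and microglia markers that could be named was 513 to 1336 CPM in ipsilateral PBBI and 204 to 443 CPM in ipsilateral sham, lowest in rat 83 and highest in rat 81. Tmem119, a marker of resting microglia on this list, went the other way, at a mean of 16.7 CPM against 31.6 CPM. The 7 of 10 named neutrophil markers summed to 21.0 to 268.0 CPM against 9.84 to 54.9 CPM, also lowest in rat 83 and highest in rat 81. Rat 85, the lowest PBBI library in 7 of the 16 higher members, was next to the highest in both sums, at 1259 and 192 CPM. The 4 of 10 named choroid plexus markers summed to 57.1 to 136.9 CPM against 141.0 to 243.5 CPM, lowest in rat 81 and highest in rat 83. This sum was mostly Enpp2, at a mean of 62.0 CPM against 128.0 CPM, and Igf2, at 21.3 CPM against 56.8 CPM. Wdr86 averaged 0.486 CPM against 1.61 CPM, and Kl hardly differed, at 0.267 CPM against 0.284 CPM. The 4 of 10 named leptomeningeal markers, of which Igf2 is on both lists, summed to 146 to 639 CPM against 438 to 960 CPM. Crabp2, on the leptomeningeal list, went the other way, at a mean of 29.6 CPM against 12.2 CPM. The 5 of 10 named astrocyte markers, mostly Gfap, summed to 2436 to 7471 CPM against 1376 to 2427 CPM. Only Gfap among them was higher, at a mean of 4567 CPM against 576 CPM. The others were lower: Aldoc averaged 499 CPM against 943 CPM, and Acsbg1 159 CPM against 240 CPM. Gjb6 averaged 15.5 CPM against 44.7 CPM, and Aldh1l1 7.26 CPM against 14.2 CPM. The 2 of 7 named endothelial markers summed to 41.6 to 112.6 CPM against 69.2 to 126.8 CPM, but they differed in direction: Vwf averaged 35.2 CPM against 15 CPM, and Slco1c1 32.5 CPM against 72.5 CPM. Elane and Ccr2 each averaged at most 0.145 CPM in every group. None (0 of 7) of the neuronal markers was named in the lists, so the cortical label was not checked against them.

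The contralateral libraries did not choose the members, so this is the contrast in which they were tested. They come from the same 11 rats, however, and deviations of the 2 hemispheres of a rat were correlated (0.256 to 0.785). This contrast is therefore not independent of the selection. Of 30 members tested, 20 were higher and 10 lower in contralateral PBBI than in contralateral sham, with log2 fold changes from -0.75 to 0.58. Of all genes tested, 48.8% had a fold change above 0. The median was 0.09, beside -0.01 over all genes. The edgeR test, adjusted over all 15907 genes, called 0 members and 0.00% of all genes, and the smallest adjusted p of a member was 0.999988. At an unadjusted p under 0.05 it picked 1 member, beside 2.30% of all genes. DESeq2 without a prior called 0 members and 3 of all 22293 genes. It had 5 members at an unadjusted p under 0.05, beside 2.66% of all genes. In 0 members did the groups not overlap, beside 0.157% of all genes.

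That 1 member was Slc14a1. It was at 122, 107, 65.4, 110.3, 121 and 113 CPM in contralateral PBBI and 58.0, 78.4, 61.2, 83.8 and 86.7 CPM in contralateral sham. In 5 of 6 PBBI rats it was above all sham rats, and rat 85 was within the sham range. The log2 fold change was 0.53 (SE 0.19), and edgeR's p adjusted over all genes was 0.999988. An exact permutation test of its mean log2 CPM, two-sided, gave p = 0.0281.

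This exact test was run on 32 members, with no adjustment, and 3 had p under 0.05, beside 2.33% of the 22376 genes with a contralateral count. Besides Slc14a1 they were Slc2a9 and Slc14a2. Of those 22376 genes, 15907 passed edgeR's filter on low counts, while 30 of the 32 members did, so the shares are not fully alike. Slc2a9 was at 1.58, 1.60, 1.47, 2.10, 1.13 and 1.08 CPM in contralateral PBBI and 0.484, 0.936, 1.18, 1.09 and 1.28 CPM in sham. Of its PBBI libraries 4 were above all sham libraries, and the log2 fold change was 0.58 (SE 0.30, exact permutation p = 0.0325). Slc14a2 was at 0.636, 0.0372, 0.0346, 0.122, 0.344 and 0.0696 CPM in contralateral PBBI and 0.0372, 0, 0.0365, 0.0650 and 0 CPM in sham (exact permutation p = 0.0455), with rats 81 and 90 the highest. Slc14a1 and Slc2a9 did not pass edgeR's adjustment over all genes. Slc14a2 did not pass the filter on low counts for that fit, and the contralateral fit without a filter called 0 members.

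Slc39a1 and Slc11a1 came next. Slc39a1 averaged 80.0 ± 16.8 (SD, n = 6) CPM in contralateral PBBI and 61.2 ± 9.61 (SD, n = 5) CPM in sham, and the exact permutation p was 0.0541. Slc11a1 averaged 4.62 ± 1.44 (SD, n = 6) CPM against 3.25 ± 0.541 (SD, n = 5) CPM, with an exact permutation p of 0.0628. Slc16a3, which had the highest fitted fold change on the injured side, averaged 2.22 ± 0.915 (SD, n = 6) CPM against 1.56 ± 0.392 (SD, n = 5) CPM, with an exact permutation p of 0.197. For Slc2a1 the contralateral log2 fold change was 0.04 (SE 0.17). Summed monocyte, macrophage and microglia markers were 330 to 447 CPM in contralateral PBBI and 238 to 372 CPM in sham, and astrocyte markers 1631 to 5453 CPM and 1702 to 2410 CPM. Gfap averaged 2118 CPM against 713 CPM. Of the other named astrocyte markers, Gjb6 and Acsbg1 were slightly higher, and Aldoc and Aldh1l1 slightly lower. The part of these markers in the contralateral values was not tested.

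Contralateral PBBI rat 88 stood apart in 2 carriers of inorganic ions. Slc13a4 was at 23.1 CPM in this library and at 4.09 to 7.62 CPM in the other 5, and Slc5a5 at 4.91 CPM beside 0.701 to 2.07 CPM. Without rat 88 the contralateral log2 fold change of Slc13a4 went from 0.20 to -0.42, and that of Slc5a5 from -0.04 to -0.70. The choroid plexus marker sum was 794 CPM in this library and 66.9 to 147 CPM in the other 5. Slc22a6 and Slc22a8, at 1.73 and 12.4 CPM there, lay within the range of the other libraries of the group. In contralateral sham rat 91, Slc6a5 was at 17.6 CPM beside 1.73 to 4.14 CPM in the other 4, and without it the log2 fold change of Slc6a5 went from 0.17 to 1.33.

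Comparing the hemispheres of the same rats uses the ipsilateral libraries that chose the members, so these values are also a description. In PBBI rats, 16 of 28 members that passed the filter were higher ipsilaterally and 12 lower, from -1.79 to 2.78, and the edgeR fit called 5 higher, beside 2.97% of all genes, and 4 lower, beside 0.588%. With the rat as a block, as the pairs come from the same animals, it called 9 higher and 7 lower, and calls over all genes went from 3.56% to 10.3%. In 12 members all 6 PBBI rats were higher on the injured side, where 10.4% of all genes were, and in 11 all 6 were lower, where 11.9% were. Slc16a3 differed by a log2 value of 2.78 (SE 0.54), Slc1a5 by 2.22 (SE 0.46) and Slc2a9 by 1.4 (SE 0.30). Slc5a5 differed by -1.79 (SE 0.59) and Slc25a18 by -1.39 (SE 0.24). In the fit without the block, leaving out rat 88 or rat 96 left 0 calls of members and leaving out rat 90 left 1, beside 0.00626%, 0.0376% and 0.262% of all genes. Rats were not left out in the fit with the block.

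The sham rats give the difference between hemispheres without the injury. Of 29 members, 11 were higher and 18 lower on the ipsilateral side, from -0.48 to 0.66, and the edgeR test called 0, beside 0.00% of all genes higher and 0.00% lower. At an unadjusted p under 0.05 it picked 0 members and 47 of all genes (0.298%), and DESeq2 also called 0 members. In 1 member, Slc51a, all 5 sham rats were higher ipsilaterally, beside 1.64% of all genes. In 4 members, Slc2a1, Slc2a9, Slc25a43 and Slc27a1, all 5 were lower, beside 2.27%.

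**Figure D4:**
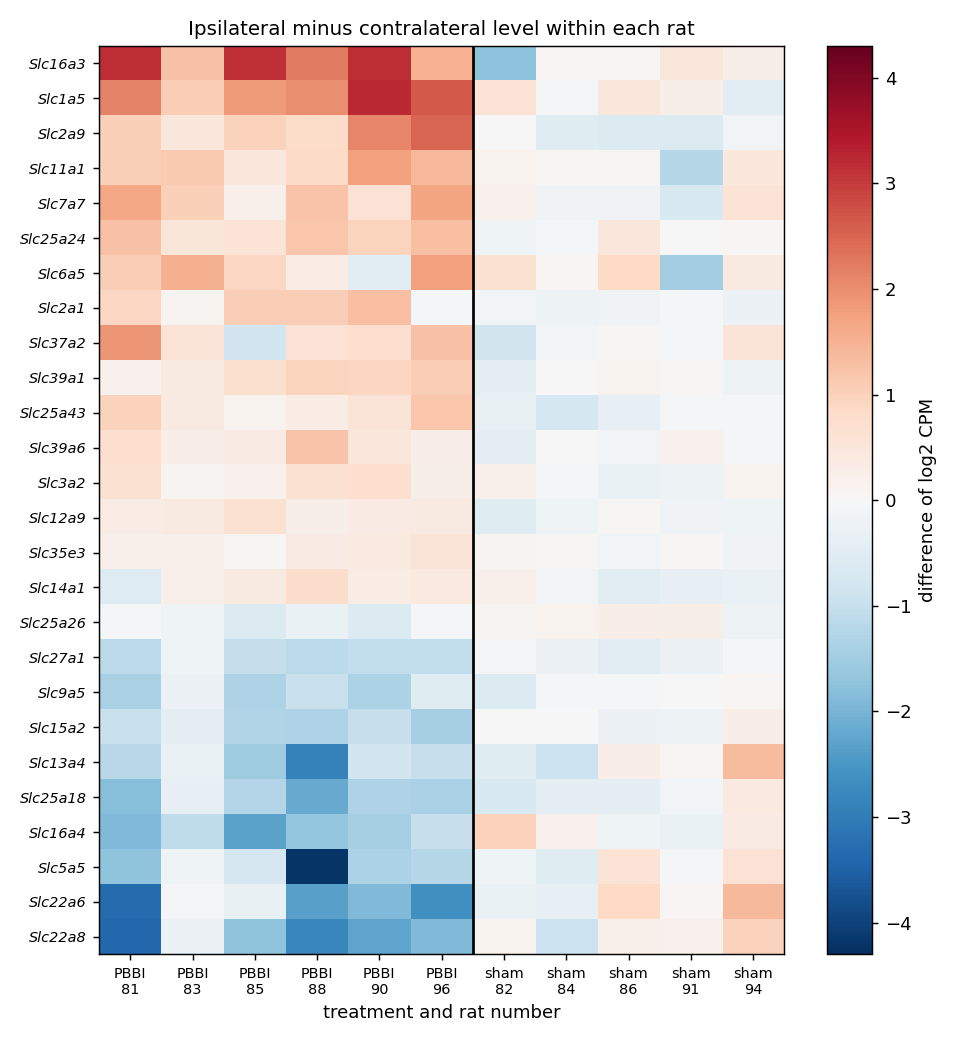
Ipsilateral minus contralateral log2 CPM (colour, prior count of 2) within each rat, for 26 of the 27 members with a mean of at least 1 CPM, sorted by the mean over PBBI rats. The PBBI columns (left of the line) run from red for Slc16a3 to blue for Slc22a8, and rat 83 is paler in most members; the sham values drawn lie between -1.76 and 1.41, and the PBBI values between -4.22 and 3.22.

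Per kilobase of gene model, which allows genes to be compared, Slc3a2 was at a mean of 59.9 CPM per kb in contralateral sham, Slc2a1 at 34.8 and Slc39a1 at 25.4. In ipsilateral PBBI the highest levels were those of Slc3a2 at 92.8 CPM per kb, Slc2a1 at 63.2 and Slc39a1 at 55.2. Slc16a3 was at rank 23 of the 33 in contralateral sham, at 0.729 CPM per kb, and at rank 12 in ipsilateral PBBI, at 7.0. Spread between neighbours in this order was not tested.

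A comparison list of 12 other transporters, pumps and ABC carriers was taken from the study's lists. On the injured side, 3 of the 12 were called higher (Abca4, Atp8b1 and Atp8b4), beside 4.09% of all genes. A further 2 were called lower, Atp2a3 among them, beside 0.584%. These genes also come from lists of called genes. Contralaterally 11 were tested and 0 called, and 2 had an unadjusted edgeR p under 0.05, beside 2.30% of all genes. Abca4, the retinoid flippase, had a log2 fold change of 2.07 there. Atp2b2, a plasma membrane calcium pump, had a value of -0.41.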

How the data were processed

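The authors sequenced stranded libraries depleted of ribosomal RNA, aligned the reads to the rat genome Rnor 6.0 with STAR 2.4.2a and counted them per gene with featureCounts 1.4.3-p1. Strand and multi-mapping settings are not given in the sources used here. The deposited values are raw counts per gene, with the gene length beside them. Groups came from the labels. Library names of both samples of rat 81 and of the contralateral sample of rat 82 hold PFC, while the others hold CC or CI. Whether the tissue differed was not tested.

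Counts were scaled by TMM, filtered with filterByExpr and tested with edgeR 4.0.16 (quasi-likelihood test, R 4.3.3, limma 3.58.1), per hemisphere as the study did, with Benjamini-Hochberg adjustment over all genes tested and a threshold of 0.05. DESeq2 1.42.0, other scaling and filters, a fit of all 22 libraries, leaving out each rat and a rat block were alternatives. The scripts were tested on simulated data. Exact permutation tests used log2 CPM with a prior count of 2.

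The members and gene lists were chosen with earlier results of these data known. Values in every library are given for the member with the largest ipsilateral fold change in each class (mean of at least 1 CPM), for members whose ipsilateral groups do not overlap and for those with an unadjusted contralateral p under 0.05. Replicate numbers are rat numbers, so the hemispheres are paired: the correlation of deviations between the 2 hemispheres of a rat was 0.256 to 0.785 over 11 rats. A further 2 carriers, and values of single genes not named in the text, are not reported here. Surgery groups by week were not used here.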

Additional observations from a re-analysis of the deposited data

Results flagged for a closer look

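In 13 of 129 groups of 5 or 6 libraries, 1 library lay far from the rest by Dixon's test. For normally distributed values, chance alone does this in about 1 in 20 groups. The test was run on CPM without a log, and the groups share the same 22 libraries. The rate may not hold here, and nothing is read from the count of 13. In contralateral PBBI rat 88 the flagged values were Slc13a4 at 23.1 CPM (others 4.09 to 7.62), Slc5a5 at 4.91 CPM (0.701 to 2.07) and Slc25a43 at 2.26 CPM (1.30 to 1.60). In ipsilateral PBBI rat 83 they were Slc15a2 at 82.7 CPM (32 to 45.3) and Slc22a8 at 10.4 CPM (0.996 to 3.83). In contralateral sham rat 91 they were Slc6a5 at 17.6 CPM (1.73 to 4.14) and Slc6a4 at 0.163 CPM (0.0329 to 0.0457). Slc6a5 in ipsilateral PBBI rat 96 was at 25.0 CPM (7.62 to 10.7). Slc14a1 was low in ipsilateral sham rat 86, at 45.1 CPM (65.4 to 72.7), and in contralateral PBBI rat 85, at 65.4 CPM (107.0 to 121.7). The other 3 were Slc1a5 in contralateral sham rat 84 at 1.87 CPM (0.845 to 1.04), Slc9c2 in ipsilateral sham rat 82 at 0.724 CPM (0.235 to 0.351) and Slc35e3 in contralateral PBBI rat 81 at 49.9 CPM (40.3 to 43.1).

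In 2 members the hemispheres differed in opposite directions in every rat of each treatment. Slc2a9 was higher ipsilaterally in all 6 PBBI rats, by a mean of 1.32 in log2 CPM, and lower in all 5 sham rats, by -0.35. Slc25a43 differed by 0.60 in PBBI and -0.31 in sham. The difference between treatments was not tested, and the ipsilateral libraries chose the members.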

How the results depend on the processing

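On the injured side 11 members were called by edgeR, beside 4.68% of all genes. DESeq2 called 27 without and 28 with a prior on fold changes (7.55% and 7.47% of all genes), and a fit of all 22 libraries called 24 (9.98%). Leaving out 1 rat gave 3 (without sham rat 91, beside 1.94% of all genes) to 22 (without PBBI rat 85, 13.7%). It gave 17 without rat 83 (7.25%), 7 without rat 96 (2.73%) and 6 without rat 82 (2.2%). It gave 4 without rat 84 (2.18%) or 88 (2.47%), and 5 without each of the others (2.43% to 2.88%). RLE scaling gave 11 (4.71% of all genes), no filter 10 (2.96%) and at least 10 counts per library 12 (4.65%). Slc16a3, Slc1a5 and Slc2a9 were called in all 11 fits without 1 rat. In the contralateral test 0 members were called in all settings run, beside at most 0.0135% of all genes. At an unadjusted p under 0.05, edgeR had 1 member (2.30% of all genes), and DESeq2 5 with or without the prior (2.5% and 2.66%). RLE scaling, no filter and at least 10 counts gave 2 each (2.33%, 2.84% and 2.2%). Leaving out 1 rat gave 1 to 3 (1.71% to 6.5%). Of 30 contralateral fold changes, 16 changed sign in at least 1 fit without 1 rat. Between the hemispheres of PBBI rats, 9 members were called (3.56% of all genes). DESeq2 called 20 with or without the prior (7.23% and 7.29%), and the fit of all 22 libraries 19 (8.16%). The fit with the rat as replicate block called 16 (10.3%). Leaving out 1 rat, without the block, gave 0 (without rat 88, 0.00626%, or rat 96, 0.0376%) to 12 (without rat 85, 7.17%). Between the hemispheres of sham rats 0 were called in all settings, the replicate block included. The cause of these changes was not tested. The members were selected on the ipsilateral contrast, and the low members rest on few counts.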
